A study of Mus musculus with 14 samples.

Results

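Zinc-binding, zinc-sensing and zinc-moving genes were followed in sorted mouse intestinal stem cells. The set consisted of 6 genes of the 55335 in each count table, taken by symbol: the metallothioneins Mt1 and Mt2, the transcription factor gene Mtf1, and the zinc transporter genes Slc30a1, Slc39a4 and Slc39a5. Each symbol had 1 row in both tables, and all 6 genes passed the filter on low counts in both.

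Metallothioneins are small cysteine-rich proteins that bind zinc and copper and buffer the free metal in the cytosol. MTF1 is the zinc-finger factor that senses free zinc and switches on the metallothionein genes and Slc30a1 through short DNA elements called metal response elements, and glucocorticoids also raise metallothionein transcription. SLC30 proteins (ZnT) move zinc out of the cytosol, SLC39 proteins (ZIP) move it in. In the intestine ZIP4, encoded by Slc39a4, takes up dietary zinc at the apical membrane, whereas ZIP5 (Slc39a5) and ZnT1 (Slc30a1) sit at the basolateral side.

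A total of 14 libraries were sequenced. The Chrm3 experiment had 8 libraries from mice that all carried the Lgr5CreERT2-IRES-GFP allele and floxed Chrm3 (Chrm3flox/flox). Chrm3 encodes the M3 muscarinic acetylcholine receptor. Over 3 days before the procedure labelled ES, the animals were injected with vehicle, which gives the group called WT, or with TAM, which by the labels removes Chrm3 in Lgr5-expressing cells and gives the group called KO. Genotype and injection therefore changed together. Each genotype was studied without (NT) and with ES, which makes 4 groups of n = 2 libraries each: WT NT and WT ES, and KO NT and KO ES. The ageing experiment had 6 libraries from Lgr5CreERT2-IRES-GFP mice aged 2 months (young, n = 3) or 18 months (old, n = 3). Cells were sorted on EGFP, which reports the Lgr5 locus. Whether the libraries stem from separate animals is not in the labels, so p-values here reflect the spread among these libraries, part of which may be technical.

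The libraries held 26683563 to 36882310 counts. The mitochondrial share of counts was 8.74% for replicate 2 of KO NT, and 6.12 to 7.53% elsewhere. Chrm3 lay at 10.9 to 13.0 CPM (the count scaled to the size of its library) in the 4 WT libraries and at 6.04 to 9.24 CPM in the 4 KO libraries, and its counts may include exons outside the floxed stretch. In edgeR's quasi-likelihood test, KO differed from WT by -0.50 on the log2 scale without ES (adjusted p = 0.119). With ES the difference was -0.68 (adjusted p = 0.0363). How completely Chrm3 was removed from the sorted cells was not tested. The stem cell markers Lgr5 (80.3 to 133 CPM) and Olfm4 (7975 to 12846 CPM) were present in every library, as was the Paneth cell marker Lyz1 (2553 to 4369 CPM). The 11 stromal and endothelial markers summed to at most 0.960 CPM, and the 8 pancreatic acinar markers to 2.94 to 7.17 CPM, with Pnlip at 0 in every library.

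The regulatory stretches of 3 genes are shown because the metal response elements are where MTF1 acts. They are RefSeq promoter windows of the GRCm38.p6 build, from 250 bases before to 50 bases after the annotated start, written 5′ to 3′ on the strand of the gene. Capitals mark the core of the metal response element, searched as TGCACNC and TGCGCNC on both strands, so that a match on the opposite strand appears reversed and complemented. The Mt1 window is chr8:94178839-94179138, the Mt2 window chr8:94172368-94172667 and the Slc30a1 window chr1:191906531-191906830, all on the plus strand.
Mt1: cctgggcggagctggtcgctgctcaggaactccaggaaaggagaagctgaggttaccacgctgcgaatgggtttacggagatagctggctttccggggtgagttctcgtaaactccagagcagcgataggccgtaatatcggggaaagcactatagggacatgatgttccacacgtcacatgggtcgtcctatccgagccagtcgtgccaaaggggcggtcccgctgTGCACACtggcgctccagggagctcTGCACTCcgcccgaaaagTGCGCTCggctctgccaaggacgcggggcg
Mt2: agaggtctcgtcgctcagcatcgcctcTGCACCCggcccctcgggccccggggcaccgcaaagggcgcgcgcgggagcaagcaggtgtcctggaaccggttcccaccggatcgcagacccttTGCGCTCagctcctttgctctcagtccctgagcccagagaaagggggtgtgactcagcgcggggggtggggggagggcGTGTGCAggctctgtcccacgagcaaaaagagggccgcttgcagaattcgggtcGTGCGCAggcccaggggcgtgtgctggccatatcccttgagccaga
Slc30a1: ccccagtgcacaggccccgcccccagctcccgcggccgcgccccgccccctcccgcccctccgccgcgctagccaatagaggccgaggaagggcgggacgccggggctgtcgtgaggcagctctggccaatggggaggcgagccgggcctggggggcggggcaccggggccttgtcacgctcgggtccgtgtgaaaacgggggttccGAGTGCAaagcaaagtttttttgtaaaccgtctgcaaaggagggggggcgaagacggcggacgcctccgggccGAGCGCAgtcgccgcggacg

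The Mt2 window held 4 matches, 2 on each strand, and 0.517% of the 32851 windows searched the same way held at least 4. The Mt1 window held 3 matches, all on the strand of the gene, and at least 3 were found in 1.97% of all windows. Slc30a1 had 2 matches, both on the opposite strand, against 7.11% of windows with at least 2. Slc39a5 had 1 match in the first of its 2 windows, as 25.7% of all windows had at least 1, and no match in the second. These letters did not occur in the Mtf1 window, and no 2 of the matches in the windows of these genes overlapped. Slc39a4 had no window in the set and was not searched. With the start as base 1, the Mt1 matches began at positions -23, 3 and 21. Those of Mt2 began at -223, -128, -50 and 5, and those of Slc30a1 at -43 and 31. GENCODE places further Mt1 transcript starts 122 and 152 bases downstream of the RefSeq start, and Mt2 starts 46 and 242 bases downstream. The Mt2 start 46 bases downstream lies inside the window shown, and the windows end before the other 3. Positions and counts of matches refer to the RefSeq starts. The bases between the window ends and those 3 starts are not covered by them. A match is a string of letters and not evidence of binding.

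In the GRCm38 annotation (GENCODE M21), Mt2 (chr8:94172664-94173568) and Mt1 (chr8:94179082-94180327) are neighbours on the plus strand of chromosome 8, 5513 bases apart, with Mt3 and Mt4 upstream in the same cluster. Mtf1 lies at chr4:124802104-124849800 and Slc30a1 at chr1:191906767-191913247, both on the plus strand. Slc39a4 (chr15:76612383-76617384) and Slc39a5 (chr10:128395931-128401229) lie on the minus strand. Exons of 3 of the genes overlap an antisense gene: Mt2 shares 432 bases with Gm45774, Mtf1 721 bases with 1110065P20Rik, and Slc30a1 468 bases with 1700034H15Rik. The libraries were strand-specific, but the sources used here do not give the strand setting of the counting. The antisense genes themselves had 11 to 79, 78 to 226 and 25 to 86 counts per library. In the annotated transcripts, Mt1 shared no stretch of 50 bases with any other gene, Mt2 included, and the stretches that Mt2 shared all came from its antisense partner.

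Compared per length, as CPM per kilobase of the principal transcript, Mt1 had the highest median level over the 14 libraries at 83.0, followed by Slc39a5 at 49.3, Mt2 at 22.2 and Slc39a4 at 19.3. Mtf1 (3.82) and Slc30a1 (3.68) were at the low end. The Mt1 libraries (57.7 to 124) lay above all Slc39a5 libraries (39.9 to 53.4) on this scale. Mt2 (7.98 to 68.2) overlapped with Slc39a4 (13.8 to 23.9), and Mtf1 (3.31 to 4.69) with Slc30a1 (2.67 to 5.0006). The order of the first 2 genes depends on the length used: over all annotated exons, Slc39a5 had a median of 44.9 CPM per kilobase and Mt1 36.6.

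Among the 23 other metallothionein and zinc transporter genes, the highest medians per length were those of Slc39a1 (34.9 CPM per kilobase), Slc39a7 (33.5), Slc30a5 (24.6) and Slc39a11 (23.8). Slc39a7 encodes ZIP7, which releases zinc from the endoplasmic reticulum, and Slc30a5 encodes ZnT5 of the secretory pathway. The brain metallothionein Mt3 had at most 26 counts in a library and the squamous epithelial Mt4 at most 5. Slc30a8, which encodes the zinc transporter of pancreatic beta cells, and Slc39a12 had no count in any library.

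**Figure D1:**
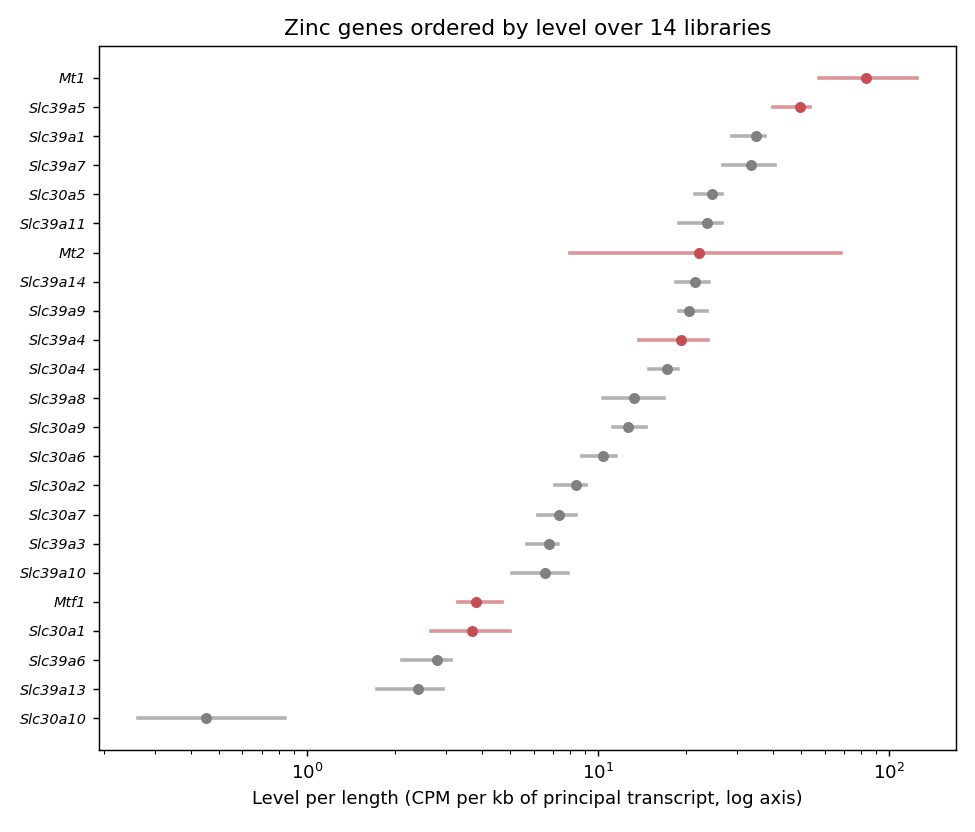
Level per length (CPM per kilobase of principal transcript, log axis) of the 23 zinc genes that reached 100 counts in at least 1 library; points are medians over 14 libraries, lines run from the lowest to the highest library, and the 6 genes followed are in red. Mt1 leads with a median of 83.0, and Mt2 has the longest line of the 6, from 7.98 to 68.2.

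The genes differed in how far they moved between libraries. The highest library exceeded the lowest by a ratio of 8.54 for Mt2, 2.16 for Mt1, 1.87 for Slc30a1, 1.73 for Slc39a4, 1.42 for Mtf1 and 1.34 for Slc39a5. Mt2 was thus the most variable of the 6, and Slc39a5 the steadiest. All levels that follow are CPM after scaling by the trimmed mean of M-values (TMM). Changes are log2 fold changes ± SE from edgeR's quasi-likelihood test, with Benjamini-Hochberg adjustment over all tested genes. A gene is said to have risen or fallen where the adjusted p was under 0.05. Shares of all tested genes that passed refer to this edgeR threshold. No such share is given for counts at an unadjusted p or by DESeq2 or limma-voom, so those counts are descriptions.

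**Figure D2:**
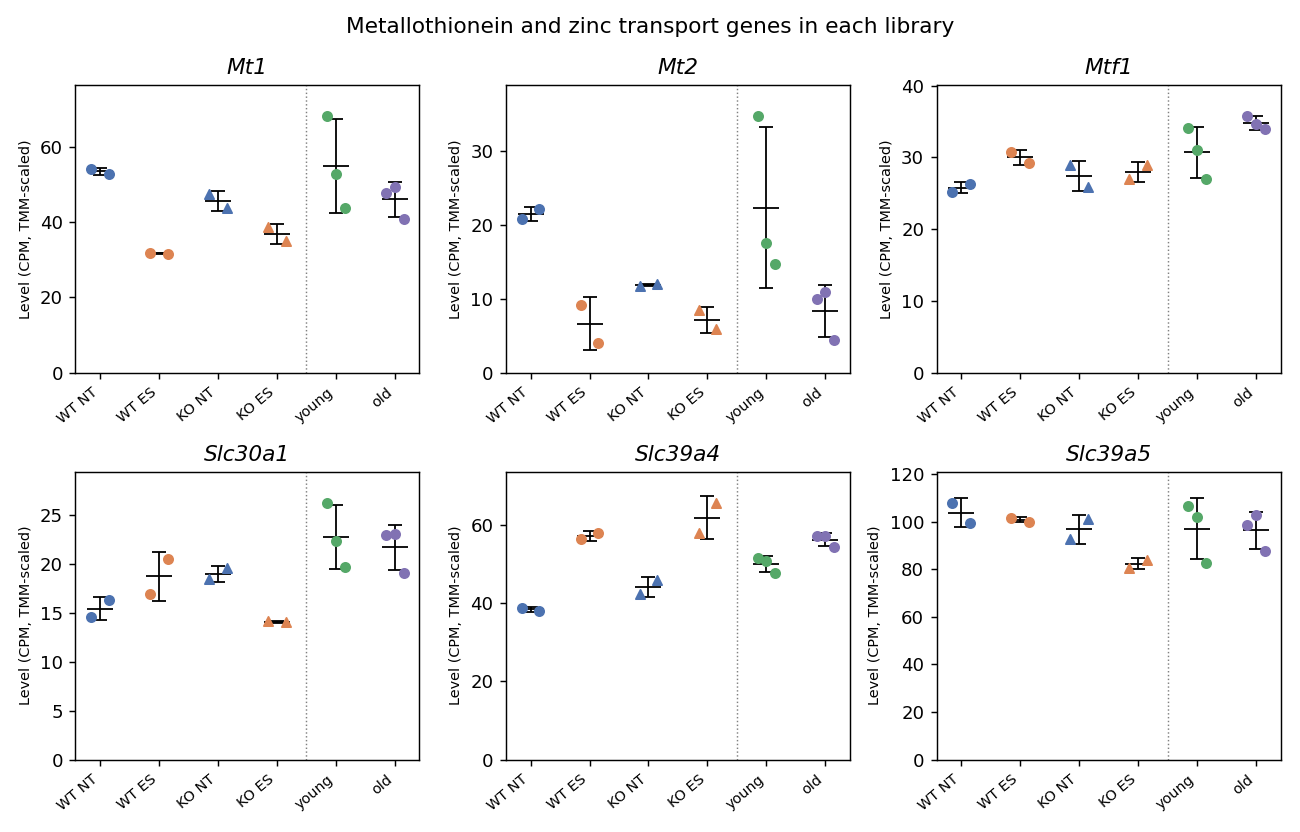
CPM of each of the 6 genes in every library (points; triangles for KO), with the group mean and SD in black; the dotted line separates the Chrm3 experiment from the ageing experiment, which were scaled separately. Mt1 and Mt2 sit lower in WT ES than in WT NT, Slc39a4 sits higher in ES of both genotypes, and within the Chrm3 experiment Slc39a5 is lowest in KO ES, at 80.7 and 84.1.

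ES in WT mice: both metallothioneins fell and the apical zinc importer gene Slc39a4 rose. These 3 of the 6 genes passed the test, against 3.48% of the 17364 genes tested. Mt1 read 54.1 and 52.8 CPM in the WT NT libraries and 31.8 and 31.7 CPM in the WT ES libraries. The pairs were tight and far apart (mean 53.5 ± 0.908 against 31.7 ± 0.122, SD, n = 2). Mt1 fell by 0.75 ± 0.08 on the log2 scale (log2 change -0.75, adjusted p = 0.00173), and it passed with each of the 8 libraries left out in turn, with adjusted p from 0.000332 to 0.041.

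Mt2 read 20.8 and 22.2 CPM in WT NT, and 9.17 and 4.08 CPM in WT ES. Both ES libraries were below both NT libraries, but they differed from each other by more than counting error: exact Poisson 95% intervals ran from 8.13 to 10.3 and from 3.35 to 4.92 CPM, and cover counting error only. The log2 change was -1.67 ± 0.26 (adjusted p = 0.00948). The call was lost without WT NT replicate 1 (adjusted p = 0.102), without WT NT replicate 2 (0.130) and without the count filter (0.0718), and the change over the 8 omissions ran from -2.40 to -1.23.

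Slc39a4 read 38.9 and 38.1 CPM in WT NT against 56.4 and 58.1 CPM in WT ES, again without overlap. It rose by 0.57 ± 0.08 on the log2 scale (adjusted p = 0.00691). Without WT NT replicate 1 or 2 the adjusted p was 0.104 or 0.130.

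The other 3 genes did not pass in WT. The zinc exporter gene Slc30a1 read 14.5 and 16.2 CPM in NT and 16.9 and 20.5 CPM in ES (0.28 ± 0.12, adjusted p = 0.237). The sensor gene Mtf1 read 25.2 and 26.3 CPM in NT and 30.7 and 29.3 CPM in ES (0.22 ± 0.09, adjusted p = 0.216). Both had ES libraries above the NT libraries, which 52.8% of all tested genes had in one direction or the other. Slc39a5 read 108 and 99.7 CPM in NT and 102 and 100.2 CPM in ES, within the same range (-0.04 ± 0.07, adjusted p = 0.813).

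Cell type markers moved in the same comparison. Of 12 stem cell markers 8 fell, and their summed level went from 14827 to 15154 CPM in WT NT to 11630 to 11999 CPM in WT ES. All 12 had log2 changes below 0 (-0.74 to -0.21), with 11 at an unadjusted p under 0.05. Of 10 goblet cell markers 9 rose (5115 to 5237 CPM against 10361 to 10587 CPM). So did 4 of 12 enterocyte markers (1893 to 1894 CPM against 2458 to 2958 CPM) and 4 of 12 Paneth cell markers (9905 to 9942 CPM against 11702 to 12476 CPM). Of 10 enteroendocrine markers 3 rose (152 to 164 CPM against 253 to 263 CPM). The log2 changes of all 12 enterocyte markers were above 0 (0.18 to 1.22), with 11 at an unadjusted p under 0.05. The 9 immune markers tested had none that passed (1 at an unadjusted p under 0.05, and 0 by DESeq2 or limma-voom). The part of these markers in the changes of Mt1, Mt2 and Slc39a4 was not tested. In these bulk libraries, fewer cells of a type and less RNA per cell cannot be told apart.

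ES in KO mice: Slc39a4 rose, and the other 5 genes did not pass, where 0.513% of all tested genes passed. At an unadjusted p under 0.05 there were 5 of the 6, as with ES in WT. DESeq2 and limma-voom called 1 each. Slc39a4 read 42.5 and 46.0 CPM in KO NT and 58.0 and 65.8 CPM in KO ES, and the groups did not overlap. The log2 change was 0.49 ± 0.08 (adjusted p = 0.0276). It lost the call without KO ES replicate 2 (adjusted p = 0.238), KO NT replicate 1 (0.0539), WT ES replicate 1 (0.0568), WT NT replicate 1 (0.0849) or WT NT replicate 2 (0.0876), without the count filter (0.182), and with only the KO libraries in the fit (0.137).

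Mt1 read 47.5 and 43.7 CPM in KO NT against 38.7 and 34.9 CPM in KO ES (-0.31 ± 0.08, adjusted p = 0.167). Mt2 read 11.8 and 12.02 CPM in KO NT against 8.44 and 5.87 CPM in KO ES (-0.74 ± 0.26, adjusted p = 0.403). For both metallothioneins each ES library was below each NT library, as in WT, but 33.3% of all tested genes were separated in this way in KO. Slc30a1 read 18.4 and 19.5 CPM in NT and 14.1 and 13.99 CPM in ES, also without overlap (-0.43 ± 0.12, adjusted p = 0.191).

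Slc39a5 read 92.6 and 101 CPM in NT and 80.7 and 84.1 CPM in ES (-0.23 ± 0.07, adjusted p = 0.265). Mtf1 overlapped, with 28.9 and 25.9 CPM in NT and 27.0 and 29.0 CPM in ES (0.03 ± 0.09, adjusted p = 0.984). In this comparison 9 of 10 goblet and 6 of 12 Paneth cell markers rose, and 3 of 12 enterocyte markers fell, while enterocyte markers had risen in WT. The summed enterocyte level was 1728 to 2408 CPM in KO NT and 1584 to 1684 CPM in KO ES. Slc39a4 was higher with ES in both genotypes. The part of these markers in its change was not tested.

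The test of whether ES acted differently in KO and WT found none of the 6 genes, with 3 at an unadjusted p under 0.05 and 0 by DESeq2 or limma-voom, and 0.109% of all tested genes passed it. The difference (KO minus WT) was 0.44 ± 0.11 for Mt1 (adjusted p = 0.166), 0.93 ± 0.37 for Mt2 (adjusted p = 0.381) and -0.71 ± 0.16 for Slc30a1 (adjusted p = 0.149). For Slc39a4 it was -0.09 ± 0.11 (adjusted p = 0.846). The metallothionein calls in WT were therefore not shown to be particular to WT, and Slc30a1, whose values lay higher with ES in WT and lower in KO, was not shown to respond in opposite directions. The differences of Slc39a5 (-0.19 ± 0.10) and Mtf1 (-0.19 ± 0.13) also missed the threshold.

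**Figure D3:**
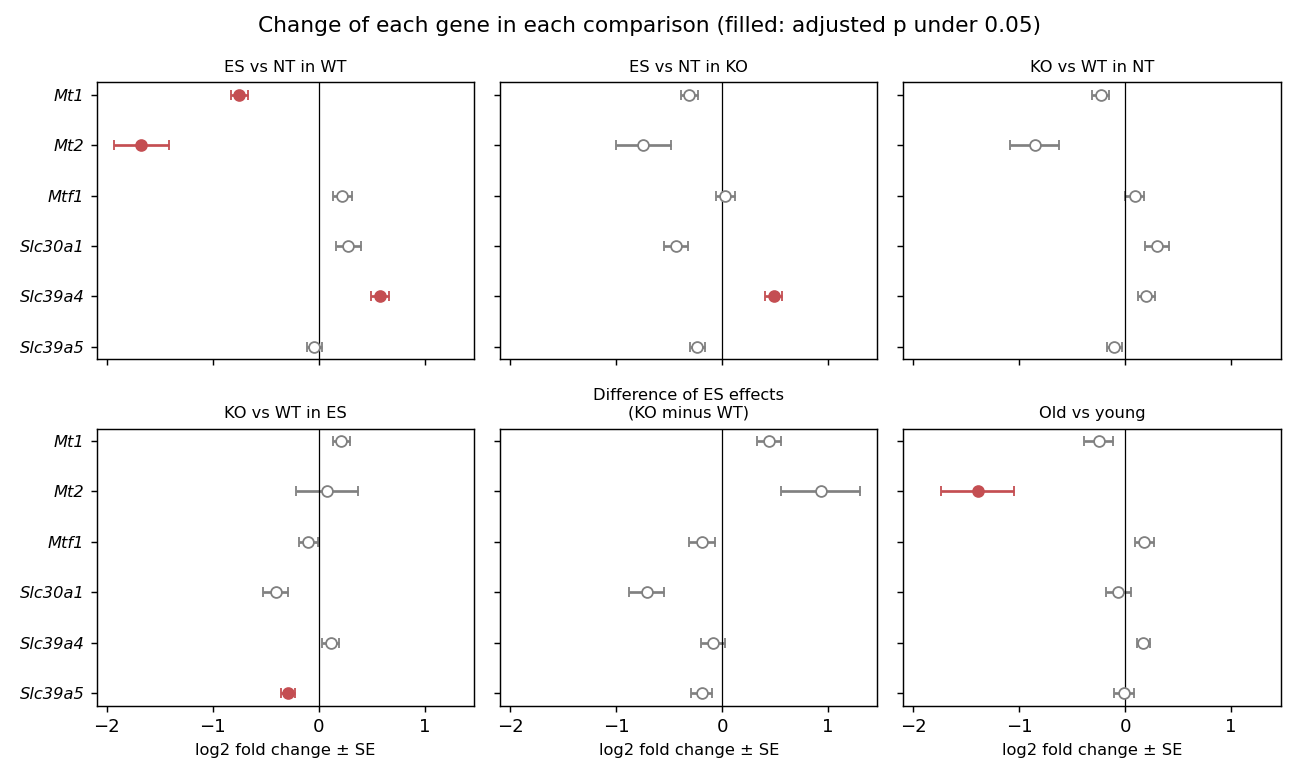
Log2 fold change ± SE of the 6 genes in each of the 6 comparisons; filled red points have an adjusted p under 0.05. The metallothioneins lie left of 0 in ES in WT (-0.75 and -1.67), and Mt2 also with age (-1.39), while Slc39a4 lies right of 0 with ES in both genotypes (0.57 and 0.49).

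KO against WT without ES: none of the 6 genes passed the test, with 4 at an unadjusted p under 0.05 and 1 by DESeq2 and by limma-voom, where 4.47% of all tested genes passed. Mt2 was the gene at the edge. Its KO NT libraries (11.8 and 12.02 CPM) were below its WT NT libraries (20.8 and 22.2 CPM), with a log2 change of -0.85 ± 0.23 and an adjusted p of 0.0697. DESeq2 gave an adjusted p of 0.0329 and limma-voom 0.0479. It also passed when only these 2 groups were fitted (0.00693), without WT ES replicate 1 (0.0115) and without WT ES replicate 2 (0.0109).

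Mt1 in KO NT (47.5 and 43.7 CPM) was below WT NT (54.1 and 52.8 CPM), by -0.23 ± 0.08 (adjusted p = 0.145). Slc30a1 (0.30 ± 0.12, adjusted p = 0.196) and Slc39a4 (0.20 ± 0.08, adjusted p = 0.23) were higher in both KO NT libraries than in both WT NT libraries. Such a separation, in either direction, was found for 48.0% of all tested genes. Mtf1 (0.09, adjusted p = 0.662) and Slc39a5 (-0.10, adjusted p = 0.501) were close to their WT values. In the same comparison all 10 goblet, 6 of 8 tuft, 3 of 12 Paneth, 2 of 12 stem cell and 1 of 10 enteroendocrine markers fell and 1 of 12 enterocyte markers rose, and their part in these values was not tested. The WT NT libraries serve as controls both here and in ES against NT in WT, so the values of the 2 comparisons are not independent.

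KO against WT under ES: the basolateral importer gene Slc39a5 fell, 1 of 6 genes against 7.56% of all tested genes. It read 80.7 and 84.1 CPM in KO ES against 102 and 100.2 CPM in WT ES, without overlap, as 53.3% of all tested genes were separated in either direction. The log2 change was -0.29 ± 0.07 (adjusted p = 0.0316). The call was lost without either KO ES library (adjusted p = 0.126 without replicate 1 and 0.116 without replicate 2), without either WT ES library (0.157 and 0.139), without either WT NT library (0.0657 and 0.0654) and without the count filter (0.0929). In the same libraries 11 of 12 enterocyte markers fell, their sum being 2458 to 2958 CPM in WT ES and 1584 to 1684 CPM in KO ES. Of the other lists, 9 of 10 goblet, 7 of 10 enteroendocrine, 5 of 8 tuft and 2 of 12 Paneth cell markers fell, and 4 of 12 stem cell markers rose. The part of these markers in the change of Slc39a5 was not tested.

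Slc30a1 also lay lower in KO ES (14.1 and 13.99 CPM) than in WT ES (16.9 and 20.5 CPM), by -0.41 ± 0.12 (adjusted p = 0.0631). It passed without KO NT replicate 1 (0.0480) and without KO NT replicate 2 (0.0427). Mt1 was higher in both KO ES libraries (38.7 and 34.9 CPM) than in both WT ES libraries (31.8 and 31.7 CPM), with 0.21 ± 0.08 and an adjusted p of 0.147. Mt2 overlapped (8.44 and 5.87 CPM against 9.17 and 4.08 CPM) at 0.08 ± 0.29 (adjusted p = 0.911), and its sign turned without KO ES replicate 1 (-0.20) or WT ES replicate 2 (-0.36). Slc39a4 (0.11, adjusted p = 0.445) and Mtf1 (-0.10, adjusted p = 0.558) did not pass.

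Old against young: Mt2 fell, and the other 5 genes did not pass, where 7.84% of the 16807 tested genes passed. Mt2 read 34.8, 17.6 and 14.7 CPM in the young libraries and 9.95, 10.9 and 4.38 CPM in the old libraries. Every old library was below every young one, a separation that 26.4% of all tested genes showed in either direction. The spread within each group was wide: young replicate 1 (95% interval 32.9 to 36.9 CPM) stood far above the other young libraries, and old replicate 3 (3.68 to 5.17 CPM) below the other old ones. The log2 change was -1.39 ± 0.35 (adjusted p = 0.033). DESeq2 (adjusted p = 0.0881) and limma-voom (0.0609) did not call it. It was lost without young replicate 1 (0.0948, log2 change -0.93), young replicate 2 (0.0534), old replicate 1 (0.0900), old replicate 3 (0.0617) or the count filter (0.166), and passed without young replicate 3 (0.018) or old replicate 2 (0.044).

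Mt1 overlapped between the ages, with 68.2, 52.9 and 43.7 CPM in young and 47.8, 49.4 and 40.8 CPM in old libraries (-0.25 ± 0.14, adjusted p = 0.341). Slc39a4 read 51.6, 50.8 and 47.7 CPM in young and 57.3, 57.4 and 54.4 CPM in old libraries. All its old libraries were above the young ones, but the change of 0.17 ± 0.06 did not pass (adjusted p = 0.14). Mtf1 read 34.1, 31.0 and 27.0 CPM in young and 35.8, 34.6 and 33.9 CPM in old libraries (0.18 ± 0.09, adjusted p = 0.282).

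Slc30a1 (26.2, 22.3 and 19.7 CPM in young, 22.9, 23.1 and 19.0 CPM in old) changed by -0.06 ± 0.12 (adjusted p = 0.83). Slc39a5 (107, 102 and 82.7 CPM in young, 98.6, 103 and 87.9 CPM in old) changed by -0.01 ± 0.09 (adjusted p = 0.976). With age, 7 of the 10 immune markers tested rose (27.7 to 42.7 CPM summed in young and 147 to 178 CPM in old libraries), 6 of 10 enteroendocrine and 3 of 12 enterocyte markers rose, and 7 of 8 tuft, 4 of 12 Paneth and 1 of 12 stem cell markers fell. Of 10 goblet markers 3 rose and 2 fell. Cela1, the 1 acinar marker tested, rose by 0.93 ± 0.18 (adjusted p = 0.01). The stem cell sum was 13459 to 13982 CPM in young and 12423 to 15714 CPM in old libraries. The part of these markers in the change of Mt2 was not tested.

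The 2 metallothioneins did not keep a fixed proportion. The Mt2 count came to 38.5 and 42.0% of the Mt1 count in WT NT and to 28.8 and 12.9% in WT ES. In KO the proportions were 24.9 and 27.5% without ES and 21.8 and 16.8% with it. It was 51.1, 33.3 and 33.8% in young and 20.8, 22.1 and 10.7% in old libraries. The WT NT and young libraries, from 33.3 to 51.1%, were above all others, which reached at most 28.8%. These proportions restate the 2 levels and were not tested.

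**Figure D4:**
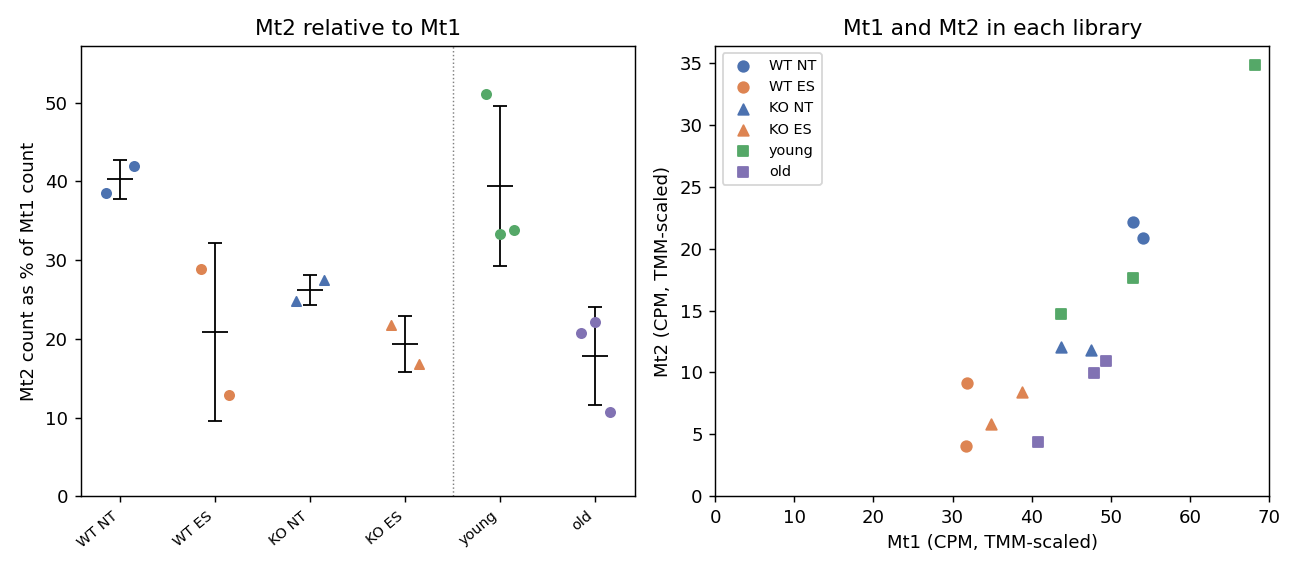
Left, Mt2 count as a percentage of the Mt1 count in each library with group mean and SD; right, Mt2 against Mt1 in CPM, 1 point per library. WT NT and young libraries have the highest proportions (33.3 to 51.1%), and young replicate 1 is highest on both axes (68.2 CPM Mt1, 34.8 CPM Mt2).

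Most other zinc genes did not pass in any comparison. Of the 23, 19 were tested in the Chrm3 experiment and 18 in the ageing experiment. With ES in WT, 2 of the 19 rose, where 3.48% of all tested genes passed, and DESeq2 called 3 and limma-voom 1. The 2 were Slc39a11, a ZIP family gene, from 57.1 and 56.8 CPM to 74.2 and 69.1 CPM (0.33 ± 0.08, adjusted p = 0.0446), and Slc39a8, whose product ZIP8 imports zinc and manganese, from 46.8 and 43.8 CPM to 58.3 and 59.8 CPM (0.38 ± 0.09, adjusted p = 0.0476). Both calls were lost without any one of the 4 WT libraries, with adjusted p up to 0.301 for Slc39a11 and 0.345 for Slc39a8, and without the count filter (0.132 and 0.145). Slc39a8 was also lost with limma-voom (0.0521). The median log2 change of the 19 genes was 0.08, and that of all tested genes was -0.0034.

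Slc39a8 also rose with age, from 36.8, 40.003 and 41.1 CPM in young to 52.7, 50.5 and 52.1 CPM in old libraries (0.40 ± 0.07, adjusted p = 0.00492), and it passed without each library in turn. It was the single one of 18 tested genes to pass there, where 7.84% of all tested genes passed. For the ES effect in KO, for both comparisons of KO with WT, and for the difference of ES effects, edgeR called 0 of the 19. In that order, NT before ES, 0.513, 4.47, 7.56 and 0.109% of all tested genes passed. At an unadjusted p under 0.05 the ES effect in KO had 3 genes, KO against WT 4 without and 4 with ES, and the difference 1. DESeq2 called 1 gene, by the difference, and limma-voom 0.

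Among 7 further genes linked to MTF1, 6 were tested, and those that passed were Slc40a1 and Ndrg1. By comparison 1 of 6 passed with ES in WT, 2 in KO against WT in NT, 2 in KO against WT under ES, 1 in the difference of ES effects and 1 with age, beside 3.48, 4.47, 7.56, 0.109 and 7.84% of all tested genes. With ES in KO edgeR called 0 of the 6, where 0.513% of all tested genes passed. There 2 had an unadjusted p under 0.05, and DESeq2 called 1 and limma-voom 0. Slc40a1 encodes ferroportin, the cellular iron exporter. In WT it read 7.01 and 6.55 CPM without ES and 21.0 and 25.6 CPM with it. In KO it read 12.9 and 19.9 CPM without ES and 9.36 and 10.3 CPM with it. The WT ES libraries were the highest and the WT NT libraries the lowest, so ES raised it in WT (1.78 ± 0.20, adjusted p = 0.00193), while KO was above WT in NT (1.26 ± 0.20, adjusted p = 0.00644) and below WT in ES (-1.24 ± 0.19, adjusted p = 0.00327). Without WT NT replicate 2 the first of these had an adjusted p of 0.0615 and the second 0.0927, and without WT NT replicate 1 the second had 0.0722.

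The ES effect on Slc40a1 differed between the genotypes by -2.50 ± 0.28 (KO minus WT, adjusted p = 0.0115). That call was lost without KO ES replicate 1 (0.0553) or 2 (0.0716), without WT NT replicate 1 (0.120) or 2 (0.168) and without the count filter (0.224). Slc40a1 was thus higher with ES in WT, where Mt1 and Mt2 were lower. The part of cell type markers in the changes of Slc40a1 was not tested. With age it fell from 20.0, 15.7 and 18.5 CPM to 10.9, 11.99 and 10.2 CPM (-0.71 ± 0.12, adjusted p = 0.0049).

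Ndrg1, a gene of the hypoxia and stress response, was lower in KO than in WT in NT (45.2 and 56.2 against 78.9 and 77.5 CPM, -0.63 ± 0.12, adjusted p = 0.0129) and in ES (50.4 and 46.9 against 77.2 and 95.6 CPM, -0.83 ± 0.12, adjusted p = 0.00215). In NT the call was lost without WT NT replicate 1 (0.134) or 2 (0.118) and without the count filter (0.0731). Of 11 copper-handling genes, Atp7b, the copper-exporting ATPase, was the only one to pass, in ES in WT (3.48% of all tested genes) and in KO against WT under ES (7.56%). It rose with ES in WT (22.4 and 22.8 against 33.4 and 35.7 CPM, 0.61 ± 0.08, adjusted p = 0.00509) and was lower in KO ES, at 27.0 and 25.7 CPM, than in WT ES (-0.39 ± 0.08, adjusted p = 0.0169). The first call was lost without WT NT replicate 1 (0.0958) or 2 (0.0963), the second without KO ES replicate 2 (0.129) or WT ES replicate 1 (0.0579) or 2 (0.139).

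Glucocorticoid-induced genes, a list of 12 that leaves out the metallothioneins, were read beside them. With ES in WT 4 of the 12 rose and none fell, where 3.48% of all tested genes passed, and the median log2 change was 0.35 against -0.0034 over all tested genes. With age 5 rose and none fell, where 7.84% passed, and the median was 0.29 against -0.00069. Mt2 fell in the same 2 comparisons. The part of these 12 genes, or of glucocorticoids, in the metallothionein levels was not tested. In KO with ES, edgeR called 0 of the 12, where 0.513% of all tested genes passed. There 4 had an unadjusted p under 0.05, and DESeq2 and limma-voom called 0. In KO against WT in NT 4 rose and 1 fell (4.47% of all tested genes passed), and in ES 2 rose and 3 fell (7.56%).

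For each of the 6, genes were ranked by how like its pattern over the libraries theirs was. The rank used the smaller of 2 Pearson correlations of log2 CPM, over the 8 Chrm3 libraries and over the 6 ageing libraries. Ranked were 9958 genes, with predicted and clone-named genes left out. The libraries fall into groups and share depth and cell composition, so the values are descriptions. For Mt1 the closest were Sox13 (0.90 and 0.96), Mt2 (0.90 and 0.88) and Fam222a (0.88 and 0.90). For Mt2 they were Pkdcc (0.94 and 0.89), Pex10 (0.88 and 0.90) and Mt1. For Slc39a4 they were H2-D1 (0.92 and 0.91), Jakmip1 (0.91 and 0.95) and Idh1 (0.90 and 0.93).

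Slc39a5 was most like Acaa2 (0.94 and 0.96), Selenow (0.85 and 0.88) and Rp9 (0.83 and 0.88). Mtf1 was most like Shank2 (0.87 and 0.89), Leng1 (0.84 and 0.85) and Fgl2 (0.84 and 0.97), and Slc30a1 most like Traf4 (0.82 and 0.94), Ndufa5 (0.80 and 0.83) and Ss18l1 (0.87 and 0.78). The 2 metallothioneins were thus among each other's 3 closest genes. Neither was among the 3 closest of Mtf1, Slc30a1, Slc39a4 or Slc39a5.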

How the data were processed

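Polyadenylated RNA of sorted Lgr5-positive intestinal stem cells was sequenced from strand-specific TruSeq libraries made from 1 µg of Trizol-extracted RNA, per the labels' protocols. The deposited tables hold raw counts per gene, 1 table for the 8 Chrm3 libraries and 1 for the 6 ageing libraries. The submitters' processing notes name mm10 and FastQC 0.11.2. The aligner and the counter, with their settings, were not given in the sources used here. In the Chrm3 table the NT libraries are named Ctrl and were read as NT.

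The 2 tables were fitted separately in edgeR 4.0.16 (filterByExpr, TMM, quasi-likelihood test, one mean per group, Benjamini-Hochberg adjustment over all tested genes). All groups of a table shared the spread. SE values derive from the change and its F statistic and are approximate. Replicates of every group differed by more than counting noise, so no library was counted as deposited more than once. The fits were also run on simulated counts with changes of known size, drawn independently with the spread of these data. That run cannot show whether the real libraries are independent. Alternatives were RLE size factors, no count filter, DESeq2 1.42.0, limma-voom (limma 3.58.1), a replicate block, the compared groups alone, and each library left out.

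The genes followed, the lists and the tests were chosen with earlier results of these data known. Beyond the 6 genes, every zinc, MTF1-linked or copper gene that passed is named, with the 4 other zinc transporters of highest level per length. Also named are up to 3 markers per cell type list and the 3 genes most like each of the 6. Those were sought among genes with a mean of at least 5 CPM in both tables, other than predicted and clone-named genes. Positions and lengths are from GENCODE M21, in which 55154 of 55335 identifiers matched, and promoter windows from RefSeq, matched by symbol for Mt1, Mt2, Mtf1, Slc30a1 and Slc39a5.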

Additional observations from a re-analysis of the deposited data

Results flagged for a closer look

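The ES effect on Slc40a1, the ferroportin gene, differed between the genotypes by -2.50 on the log2 scale (KO minus WT), a difference that passed its own test in edgeR. The change with ES was 1.78 in WT, which passed, and -0.72 in KO, which did not (adjusted p = 0.182). No such difference passed for Mt1, Mt2, Mtf1, Slc30a1, Slc39a4 or Slc39a5. In the same test 3 of 12 enterocyte and 1 of 10 goblet markers passed with negative differences, where 0.109% of all tested genes passed. The enterocyte markers had a median difference of -1.36, with all 12 at an unadjusted p under 0.05. The 12 stem cell markers had a median of 0.26, and 0 passed in edgeR or limma-voom. All 12 had differences above 0 (0.19 to 0.67), with 8 at an unadjusted p under 0.05, and DESeq2 called 3. The part of cell type markers in the difference of Slc40a1 was not tested. Groups of 2 or 3 libraries are too small for the outlier test used for larger groups.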

How the results depend on the processing

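Over 480 alternatives for single genes of the 6, 435 kept direction and side of the threshold, 26 lost the call, 9 gained one and 10 changed sign. Most of these alternatives belong to results that were not called, which keep their side by staying uncalled. The 26 losses all fall on the few results that were called. Of the 6 genes, 3 passed with ES in WT, and 1 to 3 with 1 library left out; the counts were 1 and 0 to 1 with ES in KO, 0 and 0 to 1 for KO against WT in NT, 1 and 0 to 2 for KO against WT in ES, 0 and 0 to 0 for the difference of the ES effects, and 1 and 0 to 1 for old against young. Without the count filter, 0 passed with ES in KO, for KO against WT in ES and for old against young. DESeq2 and limma-voom called 1 each for KO against WT in NT and 0 each for old against young. With only the compared groups fitted, 0 passed with ES in KO and 1 for KO against WT in NT. The counts without the filter, by DESeq2 or limma-voom and with only the compared groups have no share over all genes beside them. The causes were not tested.

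Changes near 0 turned sign. With 1 library left out, Slc39a5 with ES in WT ran from -0.10 to 0.019, above 0 without WT NT replicate 1. Mtf1 with ES in KO ran from -0.051 to 0.11, below 0 without KO ES replicate 2 or KO NT replicate 2. Mt2 in KO against WT in ES ran from -0.36 to 0.80, below 0 without WT ES replicate 2 or KO ES replicate 1. With age, Slc30a1 ran from -0.16 to 0.049, above 0 without old replicate 3 or young replicate 1. Slc39a5 ran from -0.11 to 0.064, above 0 without old replicate 3 or young replicate 1 or 2. Over all genes, the number called with 1 library left out ran from 23 to 1209 for ES in WT (605 with all), 11 to 278 for ES in KO (89), 145 to 848 for KO against WT in NT (776), 375 to 1936 in ES (1312), 0 to 363 for the difference (19) and 636 to 1485 for old against young (1318). Where a group of 2 lost a library, the remaining one was assumed to vary like the other groups. The alternatives for the zinc, MTF1-linked and copper genes were chosen after seeing the data.

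Whether the replicate numbers pair the libraries could not be settled. Correlations of same-numbered deviations ran from -0.0261 to 0.357 in the Chrm3 table. In groups of 2 the deviations mirror each other, so unlike numbers give the same size with the opposite sign. In the ageing table same-numbered libraries had 0.0692, 0.227 and 0.259, and unlike numbers -0.252 to 0.0903. There young replicates 2 and 3 correlated best with the old library of their own number, and young replicate 1 with old replicate 2. The main fit used no pairing. With the replicate block, 3 of the 6 genes passed with ES in WT, 1 with ES in KO, 1 for KO against WT in NT (Mt2, adjusted p = 0.0351), 2 for KO against WT in ES (Slc30a1, 0.0370, and Slc39a5), 0 for the difference and 1 for old against young (Mt2, 0.001). The share of all genes called with the block is not given here, so these counts are descriptions only. Of the 6 genes Mt2 had the lowest count in a library, 109.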
